A study of Zonotrichia albicollis with 38 samples.

Results

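The medial amygdala (MeA) of 19 male white-throated sparrows (Zonotrichia albicollis) was compared between 2 classes of the stage label: 5 birds labelled I, L or L/I, and 14 birds labelled E. The members were taken by that label alone, and they are 19 of the 38 libraries of the series, since each bird also gave 1 library of the hypothalamus (HYP). The sources used here do not spell out the letters E, I and L, so the codes are used as they are, and the 5 birds not labelled E are called non-E birds. All were free-living males caught in May and June with song playback and nets, 1 day after a simulated intrusion into their territory. The non-E birds were 1 white-striped (WS) and 1 tan-striped (TS) bird of stage L, 1 WS and 1 TS bird of stage I, and 1 TS bird of stage L/I. The stage E birds were 8 WS and 6 TS. Of the non-E birds 2 were of age class SY and 3 of ASY, against 7 and 7 among the stage E birds, where SY and ASY are the ringers' classes for a bird in its second calendar year and for an older one. WS birds carry an inverted form of a chromosome that TS birds lack, so the morph was held in the model. For each bird and region 4 punches of frozen sections were pooled, and per the labels the MeA made up most, not all, of the MeA tissue.

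The medial amygdala is a node of the brain network for social behaviour. It takes in sensory signals about other animals, is rich in receptors for sex steroids in many vertebrates, and sends its output to the hypothalamus and preoptic area. In birds, breeding brings changes in gonadal steroids and prolactin, hormones whose receptors are found in these regions.

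Library totals ran from 9427793 to 11671690 counts in the non-E birds and from 7342059 to 14482856 in the stage E birds (median 10814614 and 10521223.5). The mean totals did not differ beyond the spread among birds (exact two-sided permutation test over 11628 assignments, p = 0.558). Markers of the neighbouring hypothalamus were low in these MeA libraries. Their summed level was 46.1 to 57.9 CPM (counts scaled to the size of the library) over 7 tested genes in the non-E birds and 55.1 to 84.9 in stage E birds, where the HYP libraries held 1217 to 2144 CPM over 17 genes. Most of the MeA sum was LHX9 (means of 36.5 and 46.0 CPM in non-E and stage E birds), which was lower in HYP (10.3 and 13.5 CPM) and so does not mark the hypothalamus here. Transcription factors of the pallium and amygdala summed to 3199 to 4036 CPM in MeA and to 1299 to 1646 CPM in HYP. In a principal component analysis of MeA the first component held 21.6% of the variance. On it the non-E birds lay within the range of the stage E birds but toward its negative side (scores of −22.5 to 2.26 against −31.6 to 28.7). Whether the classes differ on this component was not tested. The 4 libraries at the ends of the component were all of stage E.

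No gene passed the test between non-E and stage E birds in MeA. Of 12002 genes tested, 0 (0%) had an adjusted p under 0.05 in edgeR's quasi-likelihood test with Benjamini-Hochberg adjustment, and the lowest adjusted p was 0.546. DESeq2 and limma on the deposited variance-stabilized values also called 0. At an unadjusted p under 0.05 there were 545 genes with the higher level in non-E birds (4.54%) and 520 with the lower (4.33%). The median log2 fold change was −0.011 with a median standard error (SE) of 0.105, and 62 genes differed by over 2-fold in the fit. Every MeA value below is therefore that of a gene that did not pass the test, and "higher" and "lower" say only on which side its estimate lay. Log2 fold changes are non-E over stage E throughout. CPM takes no account of gene length, so it compares birds and not genes.

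**Figure D1:**
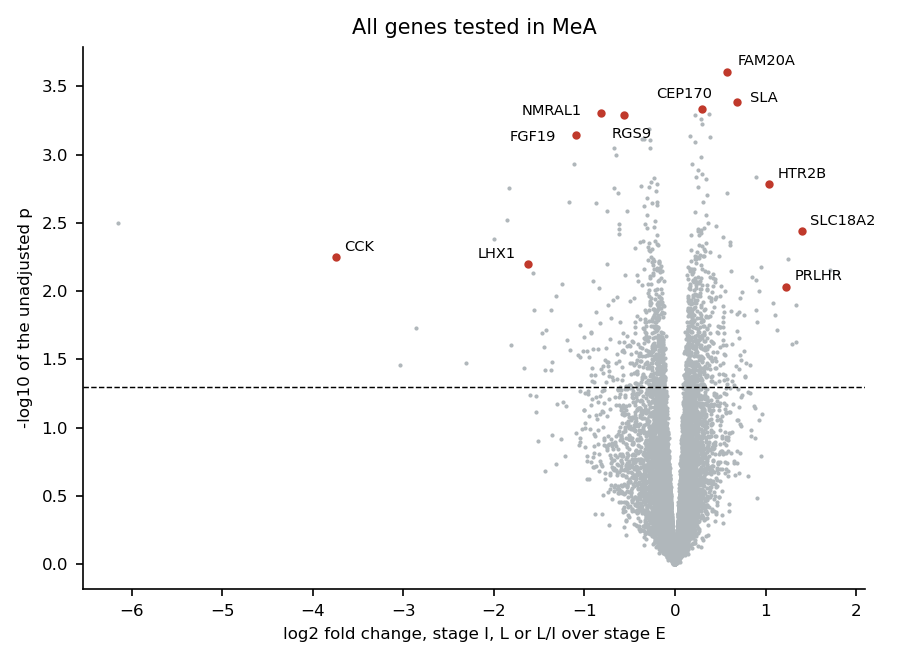
Each point is 1 of the 12002 genes tested in MeA, with the log2 fold change of non-E over stage E birds on the x axis and −log10 of the unadjusted edgeR p on the y axis; the dashed line marks an unadjusted p of 0.05. Of the points 5607 lie on the positive and 6395 on the negative side. The labelled genes, such as FAM20A, NMRAL1 and CCK, are among those described in the text.

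The genes with the smallest p among those higher in non-E birds encoded a secretory-pathway protein, an adaptor protein and several large proteins of the cytoskeleton and of membrane transport. FAM20A, a pseudokinase that activates the kinase of secreted proteins, had 12.6 and 16.8 CPM in the WS and TS birds of stage L, 13.5 and 12.5 in the WS and TS birds of stage I and 14.5 in the L/I bird. The stage E birds had 6.13, 9.69 and 12.2 CPM (lowest, median and highest). All 5 non-E birds lay above all 14 stage E birds, with means of 13.98 ± 1.76 and 9.31 ± 1.67 CPM (SD, n = 5 and 14). The log2 fold change was 0.58 (SE 0.13, 95% interval 0.31 to 0.85, edgeR adjusted p = 0.546).

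SLA, an adaptor that restrains signalling from antigen receptors, stood at 10.4 to 20.5 CPM in non-E birds and 5.69 to 13.5 in stage E birds, and 7 of the 14 stage E birds lay inside the non-E range (log2 fold change 0.69, SE 0.16). CEP170, a protein of the centrosome and of microtubules, had 145 and 149 CPM in the WS and TS birds of stage L, 153 and 171 in those of stage I and 184 in the L/I bird. The stage E birds had 111, 127 and 154 CPM (lowest, median and highest), and 12 of the 14 lay below all non-E birds (log2 fold change 0.30, SE 0.07).

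BIRC6, a giant ubiquitin ligase that restrains cell death, varied little among the non-E birds, with 137 to 143 CPM against 93.4 to 139 CPM in stage E birds (log2 fold change 0.28, SE 0.07). Of the stage E birds 13 lay below all non-E birds. The same held for DYNC1H1, the heavy chain of the motor cytoplasmic dynein, with 1271 to 1518 CPM in non-E birds and 886 to 1406 in stage E birds (0.30, SE 0.07). Further genes of this kind were VPS13C, which carries lipids between organelles (log2 fold change 0.38), the actin-nucleating formin gene DAAM1 (0.23), the neuronal topoisomerase gene TOP2B (0.17) and the microtubule-associated kinase gene MAST2 (0.23).

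The genes with the smallest p among those lower in non-E birds included a redox sensor, an antioxidant enzyme and regulators of G protein and Ras signalling. NMRAL1, a sensor of the NADPH to NADP balance, had 16.8 and 9.08 CPM in the WS and TS birds of stage L, 13.7 and 6.45 in those of stage I and 11.4 in the L/I bird. The stage E birds had 10.3, 22.4 and 26.9 CPM (lowest, median and highest), and 10 of the 14 lay above all non-E birds (log2 fold change −0.82, SE 0.20, 95% interval −1.23 to −0.40). RGS9, which speeds the shut-off of G protein signalling and is known from the striatum, had 3.74 to 6.97 CPM in non-E birds and 5.24 to 11.7 in stage E birds (−0.57, SE 0.14). PRDX6, a peroxiredoxin that reduces lipid peroxides, had 246 to 310 CPM in non-E birds and 257 to 450 in stage E birds (−0.35, SE 0.09).

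NELFB, a subunit of the complex that pauses RNA polymerase, had nearly 1 level in the non-E birds, 25.4 to 26.0 CPM, against 25.5 to 37.1 CPM in stage E birds, 13 of which were higher than every non-E bird (−0.28, SE 0.07). LAMC1, a laminin chain of basement membranes, was at 47.5 to 55.2 CPM in non-E birds and 52.6 to 78.5 in stage E birds (−0.28, SE 0.07). FGF19, a secreted growth factor, was at 1.38 to 4.28 CPM in non-E birds and 2.43 to 9.45 in stage E birds (−1.09, SE 0.27). The others were RASGRP1, an exchange factor that activates Ras (−0.65), the phosphatidylserine synthase gene PTDSS2 (−0.27), the synaptotagmin gene SYT12, listed as LOC102073666 (−0.36), and LOC102064632, which has no symbol (−0.68).

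**Figure D2:**
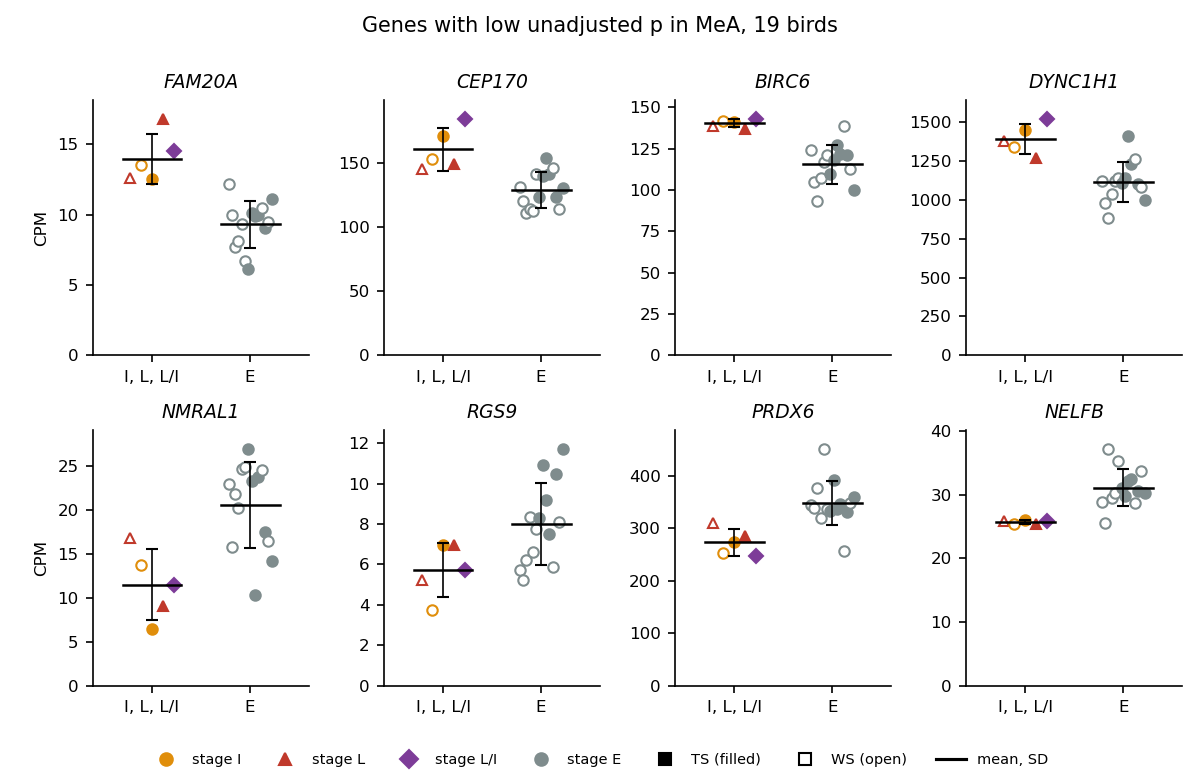
Points are the CPM of single birds in MeA for 8 of the genes with the smallest p, non-E birds to the left of stage E birds, with bars for the mean and SD. FAM20A shows no overlap of the classes, while CEP170, BIRC6, DYNC1H1, NMRAL1, RGS9, PRDX6 and NELFB each have at least 1 stage E bird among the non-E values.

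Over all genes tested, 6 (0.05%) had all 5 non-E birds above all 14 stage E birds. Besides FAM20A these included DMXL2, which assembles the vesicle proton pump (log2 fold change 0.17), VPS13D, a lipid carrier (0.26), the thiamine transporter gene SLC19A3 (0.45) and the splicing factor gene SON (0.21). In the other direction 2 genes (0.0167%) separated the classes, LOC102064632 and EIF2B5, a subunit of the exchange factor for translation initiation (−0.15). These genes were picked for their separation, so it is a description and no test.

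Steroid hormones act in this region through nuclear receptors, and aromatase makes estradiol from testosterone locally. Of 16 tested genes of steroid receptors and steroid synthesis, 2 were higher and 1 lower at an unadjusted p under 0.05. Their median log2 fold change was −0.061. Over all genes tested 4.54% were higher and 4.33% lower at that level, the background for the signalling lists here and below. Counts of 1 or 2 in lists of this size are not read as a result about the list. The estrogen receptor gene ESR1 was barely detected in MeA, with 186 counts in all 19 libraries, and stood at 0.843 ± 0.529 CPM in non-E birds and 0.978 ± 0.536 in stage E birds. The progesterone receptor gene PGR fell under the filter on low counts, with 25 counts in the non-E birds and 57 in the stage E birds.

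CYP19A1, the aromatase gene, listed as LOC102064981, had the lower mean in non-E birds. It stood at 46.0 and 36.8 CPM in the WS and TS birds of stage L, 25.4 and 28.4 in those of stage I and 12.7 in the L/I bird, against 23.0, 48.5 and 133 CPM in stage E birds (lowest, median and highest). The log2 fold change was −0.72 (SE 0.38, 95% interval −1.51 to 0.07, edgeR adjusted p = 0.576), and 7 of the 14 stage E birds lay inside the non-E range. In HYP of the same birds it was −0.59 (SE 0.16, edgeR adjusted p = 0.470), and the difference between the regions was −0.02 (SE 0.33). The glucocorticoid receptor gene NR3C1 averaged 74.7 CPM in non-E birds and 59.0 in stage E birds (0.31, SE 0.12). Of 11 genes that glucocorticoids induce 9 had a negative log2 fold change, against 6395 of all 12002 genes, and 2 were lower at an unadjusted p under 0.05. These were FKBP5, a chaperone that feeds back on the glucocorticoid receptor (39.3 and 65.6 CPM in non-E and stage E birds), and the transcription factor gene KLF9 (16.9 and 22 CPM). The summed level of the 11 genes overlapped between the classes, with 372.2 to 476.1 CPM in non-E birds and 371.7 to 545.7 in stage E birds.

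Prolactin and growth hormone act through receptors that signal by JAK2 and STAT5. Of 15 tested genes on the list for these 2 hormones, 1 was higher and 0 lower at an unadjusted p under 0.05. The median was −0.009, and the 1 higher gene was PRLHR. The prolactin receptor gene PRLR was at 16.5 to 26.0 CPM in non-E birds and 8.08 to 22 in stage E birds (log2 fold change 0.27, SE 0.17, 95% interval −0.09 to 0.63). The response genes CISH and SOCS2, which prolactin and growth hormone induce, had log2 fold changes of −0.01 and −0.06 in MeA. In HYP these were 0.86 and 0.58. The test of whether the stage effect differed between the regions called 0 of 12737 genes (edgeR's lowest adjusted p = 0.508). No difference between the regions is therefore read from these values. CISH was not called in HYP by edgeR on all birds, but DESeq2 called it there (adjusted p = 0.0156), and so did edgeR without 1 stage E bird (adjusted p = 0.0471). PRLHR was the list member with the smallest p. It is the receptor of prolactin-releasing peptide and not of prolactin or growth hormone. In the WS and TS birds of stage L it stood at 3.72 and 1.65 CPM. It was at 5.24 and 3.31 CPM in the WS and TS birds of stage I and at 4.25 in the L/I bird. The stage E birds had 0.478, 1.17 and 6 CPM (1.23, SE 0.43), and 1 of them lay above all non-E birds. The value for PRLHR in MeA was 0.73 for the birds of stage L alone and 0.40 in limma on the deposited values.

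Monoamines reach the amygdala from the brainstem, and serotonin acts there on several receptors. Of 28 tested genes 2 were higher and 1 lower at an unadjusted p under 0.05, against 4.54% and 4.33% of all genes tested. SLC18A2, which loads monoamines into vesicles, had 7.80 and 5.14 CPM in the WS and TS birds of stage L, 14.8 and 18.8 in those of stage I and 44.6 in the L/I bird, against 2.07, 5 and 14.4 CPM in stage E birds. Its log2 fold change of 1.40 (SE 0.43) was 0.88 without the L/I bird and 0.06 for the 2 birds of stage L alone. HTR2B, a serotonin receptor gene, was at 6.74 CPM in the L/I bird and 1.83 to 2.25 in the other non-E birds, with 0.650, 1.28 and 2.88 CPM in stage E birds (1.04, and 0.59 without the L/I bird).

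Among 15 tested neuropeptide genes 1 was higher and 2 lower at an unadjusted p under 0.05, against 4.54% and 4.33% of all genes tested. CORT, listed as LOC102062795, encodes cortistatin, a relative of somatostatin, and stood at 6.91 and 12.6 CPM in the WS and TS birds of stage L, 9.31 and 6.80 in those of stage I and 15.0 in the L/I bird. The stage E birds had 1.6, 4.99 and 12.5 CPM, 11 of them below all non-E birds (0.89, SE 0.31). CCK, the cholecystokinin gene, was at 0.214 to 1.10 CPM in non-E birds and at 0.331, 2.21 and 57.7 CPM in stage E birds, where the second highest value was 12.1. The log2 fold change for CCK in MeA, −3.75 (SE 1.21), was −2.11 without the highest stage E bird and −0.67 in limma on the deposited values. In HYP the gene stood at 38.6 to 53.2 CPM in non-E birds and 34.4 to 55.5 in stage E birds. The gene for gastrin-releasing peptide, GRP, averaged 4.72 CPM in non-E birds and 6.93 in stage E birds (−0.54). VIP, a peptide that drives prolactin release in birds, was at 54.0 to 81.1 CPM in non-E birds and 39.0 to 90.2 in stage E birds (0.15, SE 0.14). In HYP its log2 fold change was 0.64 (SE 0.16, edgeR adjusted p = 0.432). The difference between the regions for VIP was −0.47 (SE 0.24, edgeR adjusted p = 0.625) and did not pass the test. Of the receptors of neuropeptides, 2 of 24 were higher, VIPR2 (0.18) and NPY1R (0.31), and 1 lower, MC4R, listed as LOC102060789 (−0.66). In HYP of the same birds DESeq2 called MC4R lower (log2 fold change −0.38, adjusted p = 0.0156), and edgeR on all birds did not.

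**Figure D3:**
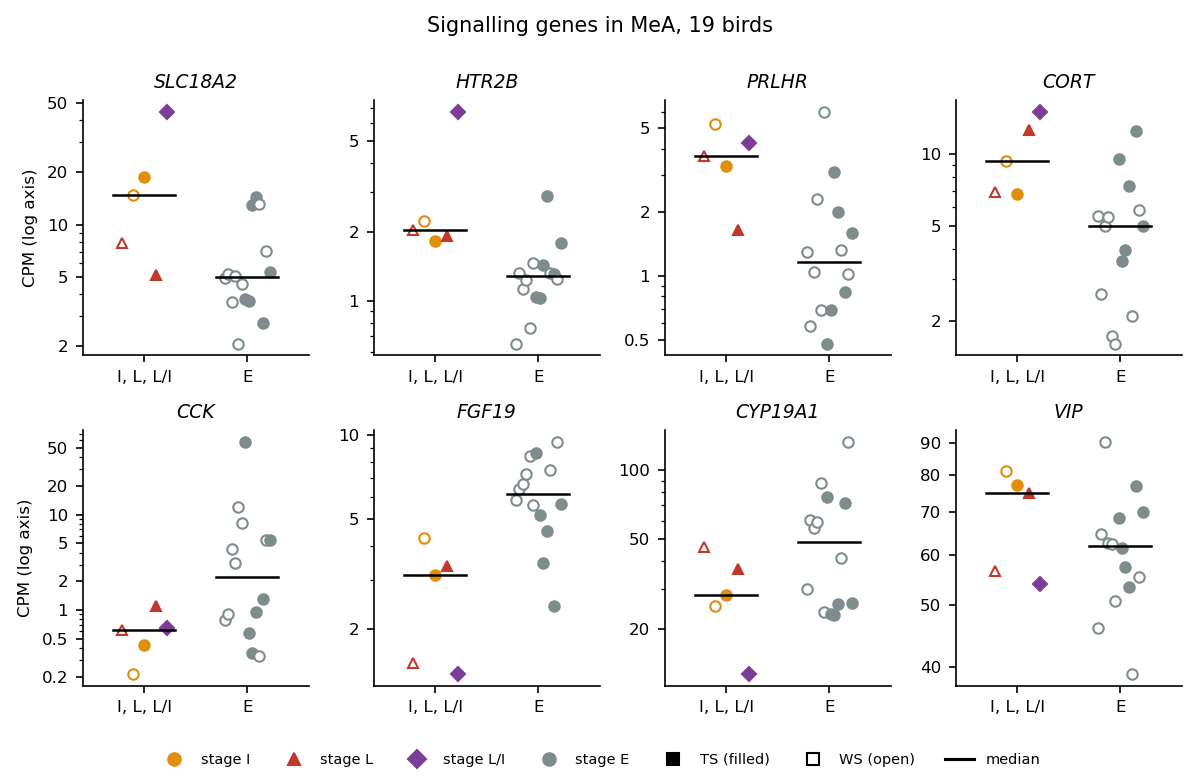
CPM of single birds in MeA on log axes for 8 signalling genes, non-E birds to the left of stage E birds, with a bar for the median. The L/I bird is the highest point for SLC18A2 and HTR2B, and 1 stage E bird at 57.7 CPM is the highest for CCK.

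Over all 12002 genes tested, 5607 had a positive log2 fold change, and 4.54% were higher at an unadjusted p under 0.05, the background for the neuronal lists. Of 42 tested potassium channel genes 31 had a positive and 11 a negative log2 fold change, 7 were higher and 0 lower at an unadjusted p under 0.05, and the median was 0.139. The 7 included KCNQ3 (0.23), the delayed rectifier gene KCNC2 (0.14), the modifier gene KCNF1 (0.21), KCNA4 (0.37) and KCNH5 (0.54). Of 31 genes of synaptic vesicles and plasticity 27 were positive and 4 were higher at that level, CPLX1, which clamps vesicle fusion (0.30), the calcium-dependent kinase gene CAMK4 (0.27), and NRXN3 (0.21) and NLGN1 (0.20), which join the 2 sides of a synapse. The potassium channel sum was 4115 to 4548 CPM in non-E birds and 3449 to 4598 in stage E birds. The synaptic sum was 15500 to 18990 CPM in non-E birds and 14490 to 17790 in stage E birds. For stage L alone, 2 of 42 potassium channels and 0 of 31 synaptic genes were higher at that level. For stage I alone these counts were 1 and 2. The 4.54% is not the background of these smaller fits. For stage L alone 371 of all genes passed that level in either direction, against 1065 with all non-E birds. The number for stage I alone, given below, was also smaller than 1065. A fall of the list counts is therefore not read as a result about the lists. Of 38 genes of GABA and glutamate signalling 28 were positive and 3 higher, the receptor genes GABRA2 (0.27), GABRA4 (0.36) and GRM8 (0.35). The value for GRM8 in MeA was 0.11 for the birds of stage L alone, and the L/I bird had its highest level, 139 CPM. The 3 of 38 and, among immediate early genes, 1 of 17 at that level are close to the background. Immediate early genes, which neurons switch on with activity, were positive in 13 of 17, with a median of 0.144, and 1 was higher at that level, NR4A3 (0.29). EGR1, the one most used to map active brain areas in songbirds, was at 240 to 334 CPM in non-E birds and 152 to 313 in stage E birds (0.21, SE 0.13).

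Clock genes and genes of thyroid hormone and day length had 0 of 21 and 0 of 13 members at an unadjusted p under 0.05. PER2, a core clock gene listed as LOC102064588, was at 93.5 to 199 CPM in non-E birds and 68.2 to 189 in stage E birds (0.13, SE 0.24). DIO2, which makes the active thyroid hormone, was at 3 to 4.62 CPM in non-E birds and 3 to 6.49 in stage E birds (−0.40, SE 0.20).

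Groups of housekeeping genes lay mostly on the lower side. Of 64 genes of cytosolic ribosomal proteins 62 had a negative log2 fold change, 12 were lower and 0 higher at an unadjusted p under 0.05, and the median was −0.114. Examples were RPL11 (159 and 178 CPM in non-E and stage E birds, −0.15), RPL38 (116 and 136 CPM, −0.22) and RPL9 (262 and 302 CPM, −0.20). Of 57 subunits of the mitochondrial respiratory chain 54 were negative and 10 lower, with a median of −0.092. They included the complex I gene NDUFS3 (160 and 182 CPM, −0.18). Heat shock proteins and their partners were negative in 27 of 32, with 1 lower at that level, the mitochondrial chaperone gene HSPE1 (−0.19). That count of 1 in 32 is not above the 4.33% of all genes. Their sum was 11950 to 12750 CPM in non-E birds, inside the 10630 to 14610 of stage E birds. Over all 12002 genes tested, 6395 were negative, and 4.33% were lower at an unadjusted p under 0.05. None of these members passed the test. The ribosomal sum was 9364 to 10660 CPM in non-E birds and 9431 to 12390 in stage E birds. The respiratory sum was 9390 to 9934 CPM in non-E birds, inside the 8974 to 11580 of stage E birds. Members of a list come from the same 19 libraries, so these counts are not independent. Over the 33 alternatives of the closing section, 1 to 22 ribosomal genes and 0 to 16 respiratory subunits were lower at that level. The number of all genes at that level, in either direction, ran from 371 to 1565 over the same alternatives. The 4.33% is thus the background of the main fit only.

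A list of 60 genes of very large proteins lay on the opposite side. It was drawn up after BIRC6, DYNC1H1 and VPS13C had been seen among the leading genes, so its values are a description and carry no test. Among all 12002 genes tested, 5607 were positive and 4.54% were higher at an unadjusted p under 0.05. Of the 60, 58 were positive, 29 were higher and 0 lower at that level, and the median was 0.195. They included MYCBP2, a ubiquitin ligase of axons (321 and 255 CPM in non-E and stage E birds, 0.31), the scaffold gene PCLO of the presynaptic zone (311 and 227 CPM, 0.42), ANK3, which anchors sodium channels (log2 fold change 0.31), and the spectrin gene SPTBN1 (935 and 825 CPM, 0.19). Their summed level was 13770 to 14440 CPM in the non-E birds and 9690 to 13770 in the stage E birds.

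The mean log2 CPM of the very large proteins less that of the ribosomal proteins gave 1 number per library. The list of very large proteins was drawn up after leading genes of these MeA libraries had been seen. A higher number in the non-E birds in MeA is therefore partly built in and carries no test. In MeA the number was −0.178 and −0.0897 in the WS and TS birds of stage L. It was −0.119 and −0.0375 in those of stage I and 0.0727 in the L/I bird. The stage E birds had −0.874, −0.34 and −0.0298 (lowest, median and highest), and 3 of the 14 reached the range of the non-E birds. In HYP it was −0.44 to −0.207 in the non-E birds and −0.682 to −0.25 in stage E birds. No measure of RNA integrity was used here, and the part of RNA quality in this difference was not tested. The median log2 fold change of the very large proteins was 0.201 without the 4 stage E libraries at the ends of the first principal component. It was 0.24 among WS birds alone, 0.164 among TS birds alone and 0.205 with age class in the model. These medians carry the same limit.

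**Figure D4:**
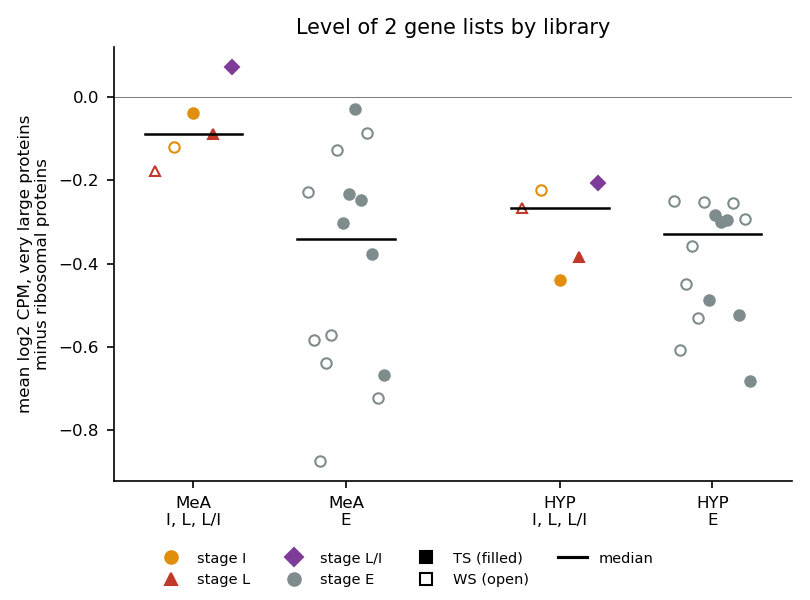
Each point is 1 library, with the mean log2 CPM of 60 genes of very large proteins minus that of the ribosomal protein genes on the y axis, for MeA and HYP and with non-E birds to the left of stage E birds; bars are medians. In MeA the stage E birds spread from −0.874 to −0.0298, and the non-E birds lie at the upper end of that range and above it. The list of very large proteins was drawn up after leading genes in MeA had been seen, so this position is partly built in.

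Markers of the cell types that punches can hold were counted in the same way. Over all 12002 genes tested, 6395 were negative, the background for the lists below. At an unadjusted p under 0.05, 4.54% of all genes were higher and 4.33% lower. In pooled tissue, fewer cells of a type and less RNA per cell cannot be told apart. Astrocyte and radial glia markers were negative in 11 of 13, with a median of −0.217, and 3 were lower at an unadjusted p under 0.05. These were S100B, a calcium-binding protein (44.9 ± 6.73 CPM in non-E and 70.4 ± 20.3 in stage E birds, −0.61, SE 0.19), the glutamate transporter gene SLC1A3 (−0.21) and the transcription factor gene SOX9, listed as LOC102064554 (−0.31). The summed level of the astrocyte and radial glia markers was 7090 to 9295 CPM in non-E birds and 8005 to 10720 in stage E birds. In HYP of the same birds 10 of 13 were negative and 3 lower at that level, with a median of −0.136. The background in HYP was 6326 negative of 12220 genes tested, with 2.72% lower at that level. Markers of leptomeninges and fibroblasts were negative in 20 of 25, with a median of −0.341 and 1 lower at that level, ALDH1A2, which makes retinoic acid (−0.79). Their sum was 295 to 578 CPM in non-E birds and 213 to 790 in stage E birds.

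Of 7 tested hypothalamic markers 2 were lower, the homeobox genes LHX9 (36.5 and 46.0 CPM in non-E and stage E birds, −0.35) and LHX1 (0.601 and 1.84 CPM, −1.62, SE 0.53). LHX9 is also on the list of pallial and amygdalar factors and, as said above, does not mark the hypothalamus here. LHX1 was barely detected, with 305 counts in all MeA libraries. It was at 0.174 to 0.886 CPM in non-E birds and 0.331 to 6.22 in stage E birds, where the second highest value was 2.99. The pallial and amygdalar list had 2 higher and 1 lower of 28, with a median of 0.072. DLX6, a factor of GABA neurons on the lists of subpallial markers and of immature neurons, was at 10.3 to 14.7 CPM in non-E birds and 7.45 to 13.3 in stage E birds (0.34, SE 0.11). Erythrocyte markers were negative in 6 of 6, with 0 at an unadjusted p under 0.05. Their sum was 495.9 to 753.5 CPM in non-E birds and 591.2 to 1001 in stage E birds. Choroid plexus and ependymal markers were negative in 11 of 16, with 3 lower and 1 higher at that level. The sum of these markers did not lie lower in non-E birds. It was 262.9 to 431.8 CPM in non-E birds (median 278.3) and 199.1 to 345.1 in stage E birds (median 269.4). Myelin, oligodendrocyte precursor and interferon-response lists had 0 members at an unadjusted p under 0.05 in MeA, with medians of 0.071, −0.028 and −0.238. Microglia, endothelial and subpallial lists had at most 1 in either direction, with medians of 0.084, −0.055 and 0.084. Genes of neurogenesis had 1 higher of 16, cell cycle genes 1 higher and 2 lower of 21, and genes of perineuronal nets and matrix 1 lower of 24. The part of tissue makeup in the gene differences above was not tested.

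**Figure D5:**
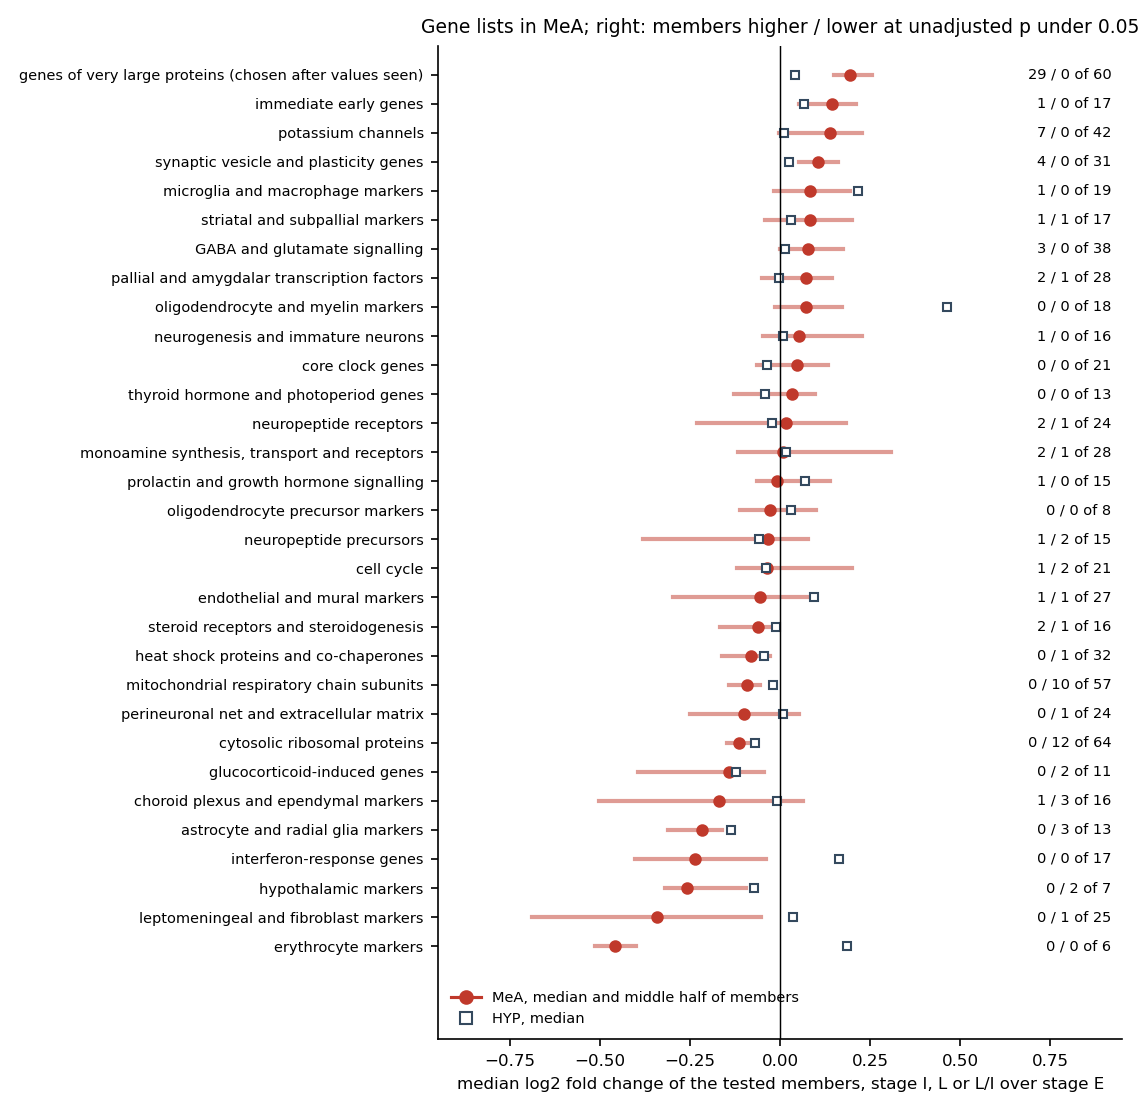
Filled circles are the median log2 fold change in MeA of the tested members of each gene list, bars the span from their lower to their upper quartile, and open squares the median in HYP; at the right stand the members higher and lower in non-E birds at an unadjusted p under 0.05 in MeA, and how many were tested. Very large proteins, a list drawn up after leading genes had been seen, are at the top with 29 higher of 60, against 4.54% of all genes tested. Ribosomal proteins and respiratory subunits have 12 of 64 and 10 of 57 lower, against 4.33% of all genes tested.

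The labels I and L were also set against E apart, for the effect of stage in MeA. The 2 birds of stage L gave 0 calls against stage E, with 371 genes at an unadjusted p under 0.05, and the 2 birds of stage I gave 0, with 602. The very large proteins had a median log2 fold change of 0.215 for stage L and 0.159 for stage I, and the ribosomal proteins −0.073 and −0.121. The potassium channels had 0.054 and 0.133, and the astrocyte markers −0.122 and −0.311. The 2 codes were not tested against each other. The test of whether the stage difference itself differed between WS and TS birds called 0 of 12236 genes (0%, edgeR's lowest adjusted p = 0.999, 299 at an unadjusted p under 0.05), and DESeq2 called 0.

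In HYP of the same birds 0 of 12220 genes (0%) were called between non-E and stage E birds by edgeR, with a lowest adjusted p of 0.0982, and DESeq2 called 14. At an unadjusted p under 0.05 there were 357 genes higher (2.92%) and 332 lower (2.72%) in non-E birds. The difference of the stage effect between the regions, tested within birds, called 0 of 12737 genes (0%, edgeR's lowest adjusted p = 0.508), and DESeq2 also called 0. At an unadjusted p under 0.05 the estimate was higher in MeA than in HYP for 565 genes (4.44%) and lower for 461 (3.62%). Among the leading genes these included RGS9 (difference −0.46, SE 0.11), MAST2 (0.23, SE 0.06), RASGRP1 (−0.72, SE 0.19) and FGF19 (−1.12, SE 0.32). These genes were named for their small p in MeA, and that choice pulls the difference toward the MeA estimate. Of the 60 genes of very large proteins 34 were in the first set and 0 in the second, and their median in HYP was 0.042, but that list was drawn up from genes that led in MeA, which by itself favours the larger estimate there, so no difference between the regions is read from it. Myelin markers lay mostly on the positive side in both regions, with 13 of 18 positive and a median of 0.071 in MeA. In HYP 12 of 18 were higher at an unadjusted p under 0.05, 0 were called by edgeR, and the median was 0.463. At that unadjusted level 3 of 18 had a lower estimate in MeA than in HYP. Of ribosomal proteins 60 of 63 were negative in HYP, with a median of −0.07, and 7 were lower at an unadjusted p under 0.05. Over all 12220 genes tested in HYP, 6326 were negative and 2.72% were lower at that level. Both regions come from the same birds, so the HYP values are no independent repeat.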

How the data were processed

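The authors deposited raw read counts for each gene, as whole numbers, and for each region a table of variance-stabilized values on an approximately log2 scale, per the labels. STAR, HTSeq, DESeq2, Novoalign, GATK and SAMtools are named in the submitters' processing notes, without versions or roles. The sources used here do not give the build, the strand setting or the handling of multiply matching reads, which leaves overlapping and near-identical genes uncertain. Unassigned reads have no entry in the count table, and 2 of its columns match no sample listed and were not used.

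Members, gene lists and the rule for named genes were chosen with earlier results of these data known. The test was that of edgeR 4.0.16, run in R 4.3.3 (TMM, filterByExpr, quasi-likelihood F test, Benjamini-Hochberg over all genes tested, called at an adjusted p under 0.05). The MeA and HYP fits had stage class and morph as terms. For stage by region, the 38 libraries entered 1 fit, in which birds were blocks and region and region by morph were terms. SEs were derived from the fold change and its F statistic. CPM uses TMM-scaled library sizes within a region. DESeq2 1.42.0, limma 3.58.1 and the other alternatives are given in the closing section.

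The genes named are the 10 with the smallest p in each direction with a mean of at least 1 CPM, list genes with an unadjusted p under 0.01, and PRLR, ESR1, PGR, CYP19A1, VIP, EGR1, PER2 and DIO2; AVP, OXT, FOS and TTR were on that rule and are not analysed here. Some genes that meet the rule are not reported here. Other genes of a list are named where the text says how many of it passed an unadjusted p of 0.05, and these, the genes without overlap of the classes, NR3C1, CISH and SOCS2, and the examples of the longer lists were chosen after their values were seen. Of 4637 LOC identifiers 1583 were given a symbol from RefSeq's genes of bZonAlb1.hap1, used for names only. Replicates are birds. Libraries of a class differed by more than sampling noise (chi-square per degree of freedom of at least 7.32 in MeA), so none was counted as a repeat. Bird numbers in the titles pair the regions: over 8925 genes each MeA library's deviations correlated best with the HYP library of its own bird in 19 of 19 birds (r of 0.322 to 0.53, against at most 0.308 with another bird).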

Additional observations from a re-analysis of the deposited data

Results flagged for a closer look

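In 4 of 72 measures looked at, 1 of the 5 non-E birds stood apart from the other 4 in MeA by Dixon's criterion, which chance meets in about 1 of 20 groups. The L/I bird accounts for 2 of them: HTR2B at 6.74 CPM (1.83 to 2.25 in the other non-E birds) and the summed level of the genes of prolactin and growth hormone signalling at 561.9 CPM (461.6 to 480.1). That sum lay inside the range of the stage E birds, 388.2 to 617.8 CPM. In the TS bird of stage I, DIO2 stood at 4.62 CPM (3 to 3.46 in the others), inside the 3 to 6.49 CPM of stage E birds. SEC16B, a gene of the sites where vesicles leave the endoplasmic reticulum, had 222 counts in MeA of the WS bird of stage L, against 0 to 5 in the other non-E birds. The same bird had 232 counts in HYP, where no other bird had more than 4, and in MeA no other of the 18 birds had more than 5. SEC16B was looked at after it was called without the filter on low counts. None of these was tested further.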

How the results depend on the processing

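In MeA the count of called genes was 0 in 32 of 33 alternatives, among them DESeq2, age class as a covariate and leaving out each bird (0 to 0). It was 1 with no filter on low counts, SEC16B, whose counts come from 1 bird. Genes at an unadjusted p under 0.05 ranged from 371 (stage L alone) to 1565 (limma-voom with quality weights) around 1065. In HYP, DESeq2 called 14 and the model with age class 1, and leaving out single birds gave 0 to 2; the cause was not tested. Stage by morph stayed at 0 in each alternative run. Of 1220 values of 37 named genes 1204 kept their direction, none passed the test, and the lowest adjusted p was 0.0856. The log2 fold changes near 0 turned for 2 genes. ESR1 in MeA turned to 0.00958 (limma on deposited values), 0.0619 (voom), 0.307 (stage I alone), 0.0163 (no L/I bird) and −0.18 to 0.14 without single birds. PER2 in MeA turned to −0.239 (stage I alone), −0.0125 (no L/I bird), −0.0201 (TS birds) and −0.0316 to 0.238. Limma on the deposited values gave smaller log2 fold changes for several genes: 0.33 for FAM20A in MeA, 0.40 for SLA in MeA, −0.42 for FGF19 in MeA, 0.45 for CORT in MeA and −0.30 for LHX1 in MeA. The deposited values are variance-stabilized and only approximately log2, so these differences are not on the same scale as those of edgeR. The same holds for the limma values of PRLHR and CCK above.

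Both regions of a bird were paired by the bird block in the stage by region fit. Without the replicate block this fit also called 0 genes, with 446 at an unadjusted p under 0.05 against 1026, and its other alternatives called 0. Over the 33 alternatives the median of the very large proteins stayed between 0.159 and 0.24, of ribosomal proteins between −0.129 and −0.073, of potassium channels between 0.054 and 0.153 and of astrocyte markers between −0.311 and −0.122. The list of very large proteins was drawn up after leading genes in MeA had been seen, so its steady median is no test. Low genes such as ESR1, with 186 counts in all, are limited by depth.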
